A study of Mus musculus with 6 samples.

Results

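Nuclear long noncoding RNAs were examined in bulk RNA sequencing of kidney endothelial cells (ECs). The 8 RNAs Malat1, Neat1, Kcnq1ot1, Meg3, Rian, Mirg, Miat and H19 were taken by gene name from a table of 55401 genes, and all 8 were listed. Their level was read as CPM (the count scaled to a common library size) and as a percent of the library, in 3 CTRL and 3 RbpjDEC libraries from male mice. Both groups carried floxed Rbpj alleles (Rbpjf/f) and both received tamoxifen, as 5 intraperitoneal doses of 1.5 mg at 8 weeks of age. CTRL mice were Cre -/- and RbpjDEC mice were Cre +/-, with a tamoxifen-inducible Cre driven by the endothelial Cdh5 promoter. Kidneys were taken 12 weeks after induction, and the labels give an age of 21 weeks. CD31+CD45- cells were sorted, so every EC type of the kidney was pooled in a library. The comparison asks how these RNAs responded to the loss of RBPJ, the DNA-binding factor of Notch signaling. Since only RbpjDEC mice carried Cre, the effects of Cre and of Rbpj loss cannot be told apart.

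The counts on genes were between 39649171 and 47726850 per library, so that a count of 3, taken as the detection floor, was worth 0.0634 to 0.0749 CPM. Rbpj itself was at 29.2 ± 0.964 CPM in CTRL and 28.2 ± 1.86 CPM in RbpjDEC (SD, n = 3 each), and since reads were counted over the whole gene, this does not check the deletion. In these counts the group names therefore rest on the labels. The paper reports recombination of the Rbpj locus in this mouse model and a lower level of a Notch target gene, also in the sorted ECs. All 16 pan-endothelial markers were detected, with summed levels of 32005 to 35519 CPM in CTRL and 29465 to 29992 CPM in RbpjDEC. These ranges did not overlap. More genes had a count in CTRL 1 (33764) than in any other library (25629 to 26785). In bulk samples, fewer cells of a type and less RNA per cell cannot be told apart.

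Most long noncoding RNAs of this kind stay in the nucleus and act there as RNA, while H19, which also hosts a microRNA, is found in the cytoplasm as well. Malat1 is concentrated in nuclear speckles, where splicing factors are stored, and Neat1 is the scaffold of paraspeckles, bodies built from RNA-binding proteins around its long isoform. Both are abundant in ECs, and Malat1 has been linked to endothelial growth. Kcnq1ot1 and H19 are imprinted RNAs of neighboring domains on chromosome 7. Kcnq1ot1 silences genes around it in cis on the paternal chromosome, and H19 is expressed from the maternal chromosome and shares an enhancer with Igf2. Meg3, Rian and Mirg form a maternally expressed series in the imprinted Dlk1-Meg3 domain on chromosome 12, where Rian hosts small nucleolar RNAs and Mirg hosts microRNAs. Miat is a nuclear RNA with repeated splicing-factor motifs.

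Malat1 lies on chromosome 19 of GRCm38 at chr19:5795690-5802672 and Neat1 at chr19:5824708-5845478, both on the minus strand and both annotated as a single exon in their longest form. Their 3′ ends are shown first because, with each RNA set against its own mean, this was the pair whose profiles over the 6 libraries differed least. In the forms that end at an A-rich tract encoded in the genome, neither RNA needs a poly(A) tail to be stable. The end of each such form folds into a triple helix of this tract and T-rich (U-rich in the RNA) stretches. In the sequences from GENCODE M21, the capitals mark 2 T-rich stretches broken by a C or by GC, and then the tract. The Malat1 stretch spans bases 6572 to 6691 of its 6983-base transcript (chr19:5795982-5796101, minus strand), and the annotated transcript goes on for 292 bases behind the tract. The Neat1 stretch spans bases 20652 to 20771 of its 20771-base transcript (chr19:5824708-5824827, minus strand) and ends with the tract.
Malat1 3′ end: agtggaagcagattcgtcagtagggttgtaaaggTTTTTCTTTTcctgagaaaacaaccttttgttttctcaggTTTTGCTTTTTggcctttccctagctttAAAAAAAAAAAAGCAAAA
Neat1 3′ end: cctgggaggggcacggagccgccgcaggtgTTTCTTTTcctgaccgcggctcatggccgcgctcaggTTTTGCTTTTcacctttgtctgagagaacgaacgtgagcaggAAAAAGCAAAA
The libraries were made from total RNA, so RNAs ending in this way were not selected against at a poly(A) step.

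RefSeq promoter windows, from 250 bases before to 50 bases after the start, were found for 6 of the 8 genes on GRCm38.p6: Malat1, Kcnq1ot1, Meg3 (2 starts), Rian, Mirg and Miat. They were searched on both strands for TGGGAA, the core bound by RBPJ, and for the longer GTGGGAA, which contains it. TGGGAA was present in 25.6% of all 32851 promoter windows and GTGGGAA in 6.38%. Among the windows of the 6 genes, TGGGAA was found once in Rian, once in Mirg and at 2 places in the window of the downstream Meg3 start, while GTGGGAA was found in none. The windows of Malat1, Rian and Mirg are printed because Malat1 gave the largest counts and because Rian and Mirg, members of the same domain, followed each other closely across the libraries. Capitals mark TGGGAA or its reverse complement. The windows are chr19:5802623-5802922 (minus strand) for Malat1, chr12:109603695-109603994 (plus strand) for Rian and chr12:109734731-109735030 (plus strand) for Mirg. The RefSeq start used for Mirg lies inside the gene body that GENCODE M21 gives.
Malat1 promoter: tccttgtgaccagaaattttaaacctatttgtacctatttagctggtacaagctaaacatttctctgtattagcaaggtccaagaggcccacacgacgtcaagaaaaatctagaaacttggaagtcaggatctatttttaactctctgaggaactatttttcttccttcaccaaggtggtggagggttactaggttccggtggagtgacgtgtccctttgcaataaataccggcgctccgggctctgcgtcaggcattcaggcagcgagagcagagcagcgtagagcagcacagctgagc
Rian promoter: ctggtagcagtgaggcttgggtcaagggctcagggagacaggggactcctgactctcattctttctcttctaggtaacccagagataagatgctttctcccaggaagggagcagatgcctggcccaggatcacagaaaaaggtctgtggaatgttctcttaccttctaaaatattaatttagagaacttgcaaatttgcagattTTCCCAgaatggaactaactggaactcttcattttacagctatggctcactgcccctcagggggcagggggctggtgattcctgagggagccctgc
Mirg promoter: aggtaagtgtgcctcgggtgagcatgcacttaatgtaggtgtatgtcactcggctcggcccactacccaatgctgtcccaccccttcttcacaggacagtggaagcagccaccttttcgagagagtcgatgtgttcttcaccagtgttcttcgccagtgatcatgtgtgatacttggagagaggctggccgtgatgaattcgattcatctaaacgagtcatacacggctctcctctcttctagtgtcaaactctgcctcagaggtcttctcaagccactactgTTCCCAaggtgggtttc
A match in these windows is a description of the letters, and no binding was measured.

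The 8 RNAs covered a wide range of levels. Per kilobase of annotated exon, Malat1 was at 3157 ± 895 CPM per kilobase (SD, n = 3) in CTRL and Neat1 at 28.3 ± 7.71. Kcnq1ot1 followed at 1.80 ± 0.0873 CPM per kilobase, and the libraries of these 3 RNAs did not overlap with those of any RNA below them. Mirg (0.197 ± 0.0906), Miat (0.0992 ± 0.0699), Rian (0.0941 ± 0.0580), Meg3 (0.0428 ± 0.0243) and H19 (0.0368 ± 0.0481) came next in CTRL. In CTRL the range of each of these 5 overlapped with that of its neighbor in this order. Within libraries, Mirg was above Miat and Rian above Meg3 in all 6, and every CTRL value of Mirg was above every CTRL value of Meg3 and H19. By counts, Malat1 ranked between 1 and 3 among all genes in every library, whereas Neat1 ranked between 60 and 256. Malat1 made up 96.4% to 97.3% of the counts on the 8 RNAs.

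**Figure D1:**
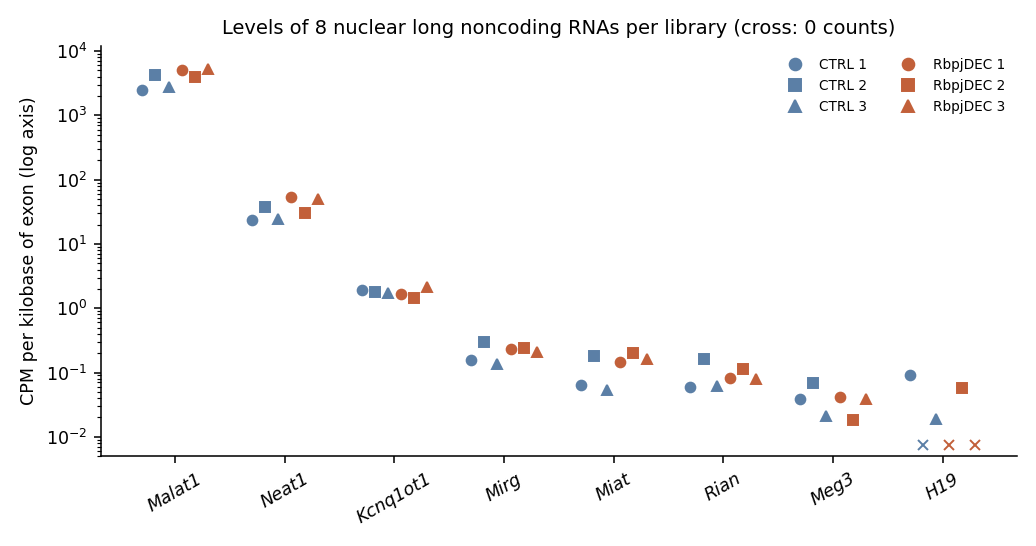
Levels of the 8 RNAs in each library as CPM per kilobase of exon on a log axis, ordered by their CTRL mean, with CTRL in blue, RbpjDEC in orange and crosses for 0 counts. Malat1 (3157 CPM per kilobase in CTRL) and Neat1 (28.3) stand far above the 5 RNAs from Mirg (0.197) down to H19 (0.0368).

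Malat1 (ENSMUSG00000092341.3) took 1.73%, 2.89% and 1.89% of the counts in CTRL 1 to 3 and 3.64%, 2.79% and 3.76% in RbpjDEC 1 to 3. RbpjDEC 1 and 3 were above all CTRL libraries, while CTRL 2 was above RbpjDEC 2, so the groups overlapped. On the CPM scale the means were 22044 ± 6247 CPM in CTRL and 33469 ± 5124 CPM in RbpjDEC (SD, n = 3 each). The fitted log2 fold change was 0.60 (SE 0.204, 95% interval 0.13 to 1.08), a fold of 1.52, with an unadjusted p of 0.0191 and an adjusted p of 0.189 in edgeR's quasi-likelihood test. Malat1 therefore did not pass the threshold of 0.05. Over all genes, an unadjusted p under 0.05 was reached by 17.5% of those tested. Without CTRL 2 the log2 fold change was 0.85 with an adjusted p of 0.0129, so that the call depended on this library, and without any other single library it stayed between 0.46 and 0.72 and was not called. In the fit without CTRL 2, 735 genes were called in all.

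Neat1 (ENSMUSG00000092274.3) was at 485, 773 and 507 CPM in CTRL 1 to 3 and at 1108, 633 and 1024 CPM in RbpjDEC 1 to 3. As for Malat1, CTRL 2 was the highest CTRL library and RbpjDEC 2 the lowest RbpjDEC library, and the groups overlapped. The means were 588 ± 160 CPM in CTRL and 922 ± 254 CPM in RbpjDEC (SD, n = 3 each), with a log2 fold change of 0.65 (95% interval -0.11 to 1.40) and an adjusted p of 0.346. No library decided this result, with a range of 0.49 to 0.89 when each library was left out.

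**Figure D2:**
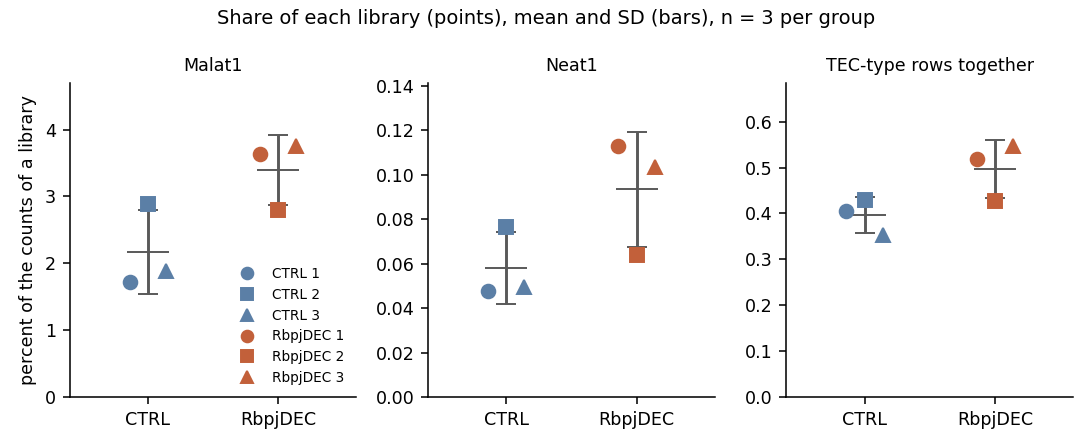
Percent of the counts of a library taken by Malat1, by Neat1 and by all rows of the annotation class TEC, with a point per library and bars for the mean and SD (n = 3 per group). For Malat1 and Neat1 the square of CTRL (CTRL 2) lies above the square of RbpjDEC (RbpjDEC 2), and the other RbpjDEC libraries lie above all CTRL libraries.

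Taken as 1 value per library, the 8 RNAs together made up 2.25 ± 0.647% of the counts in CTRL and 3.51 ± 0.551% in RbpjDEC (SD, n = 3 each). The difference of 1.26 percentage points gave p = 0.2 in a two-sided exact permutation test, in which the smallest p that 3 libraries against 3 can give is 0.1. The share is almost all Malat1.

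The ratio of the pair was steadier than either level in CTRL. Neat1 counts were 2.76%, 2.65% and 2.62% of Malat1 counts in CTRL 1 to 3, and 3.11%, 2.29% and 2.76% in RbpjDEC 1 to 3. The CTRL libraries lay within a narrow range, although the Malat1 level differed by a factor of 1.66 between them. On the log2 scale the ratio differed by 0.01 between the groups (-5.22 ± 0.0400 in CTRL and -5.21 ± 0.222 in RbpjDEC, SD, n = 3 each; two-sided exact permutation test, p = 1). This ratio does not depend on how libraries are scaled.

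Both RNAs varied between mice of a group more than most well detected genes. Among the 2118 genes with a mean of at least 100 CPM, the median standard deviation within groups was 0.0890 on the log2 CPM scale. It was 0.320 for Malat1, larger than in 98.2% of these genes, and 0.406 for Neat1, larger than in 99.1%. For Kcnq1ot1 it was 0.216, larger than in 93.6%.

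Kcnq1ot1 (ENSMUSG00000101609.2) is a 93.1-kilobase unspliced RNA on the minus strand at chr7:143203458-143296549, within Kcnq1, which encodes a potassium channel and runs on the plus strand. It was at 177, 167 and 161 CPM in CTRL 1 to 3 and at 157, 133 and 200 CPM in RbpjDEC 1 to 3. RbpjDEC 2 was the lowest and RbpjDEC 3 the highest of all 6 libraries, so the RbpjDEC libraries spanned the CTRL libraries. The log2 fold change was -0.04 (95% interval -0.35 to 0.26, adjusted p = 0.901), which puts the change between a fold of 0.787 and 1.20. Of the RNAs tested, Kcnq1ot1 had the narrowest interval.

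The 3 RNAs of the Dlk1-Meg3 domain lie in a row on the plus strand of chromosome 12, with Meg3 at chr12:109541001-109571726, Rian at chr12:109603940-109661716 and Mirg at chr12:109729764-109749460. They had few counts. Meg3 had 28, 59 and 16 counts in CTRL 1 to 3 and 34, 14 and 28 counts in RbpjDEC 1 to 3. The count of 59 in CTRL 2 (exact Poisson 95% interval 44.9 to 76.1) and that of 14 in RbpjDEC 2 (7.65 to 23.5) differed by more than counting error, and the other 4 libraries lay between 16 and 34. The intervals cover counting error only, since PCR copies were not separated by molecular identifiers.

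Rian had 44, 139 and 47 counts in CTRL 1 to 3 and 68, 86 and 57 counts in RbpjDEC 1 to 3. Mirg had 45, 104 and 42 counts in CTRL 1 to 3 and 75, 73 and 60 counts in RbpjDEC 1 to 3. For both, CTRL 2 was the highest of all libraries, the other CTRL libraries were the lowest 2, and the RbpjDEC libraries lay in between. The log2 fold changes were -0.38 for Meg3 (95% interval -1.48 to 0.72, adjusted p = 0.738), -0.05 for Rian (-0.92 to 0.82, adjusted p = 0.963) and 0.18 for Mirg (-0.56 to 0.92, adjusted p = 0.819). Without CTRL 2 they were 0.14 for Meg3, 0.58 for Rian and 0.62 for Mirg, none of them called, so that the sign for Meg3 depended on this library. The sign for Rian also turned without RbpjDEC 1 (0.01) or RbpjDEC 3 (0.05), and that for Mirg without CTRL 3 (-0.03).

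Rian and Mirg followed each other, and Meg3 followed neither as closely. The root mean square difference of their profiles, taken as log2 CPM minus the mean over the 6 libraries, was 0.19 between Rian and Mirg, 0.51 between Meg3 and Mirg and 0.59 between Meg3 and Rian. Both Rian and Mirg were also nearer to every tested RNA outside the domain than to Meg3. These differences were 0.30 (Malat1) to 0.45 (Kcnq1ot1) for Mirg and 0.43 (Miat) to 0.57 (Kcnq1ot1) for Rian. Meg3 had the fewest counts of the 3, and the part of counting error in its differences was not tested. Rian counts were 157% to 294% of Meg3 counts in CTRL and 200% to 614% in RbpjDEC, with the highest ratio in RbpjDEC 2. On the log2 scale the ratio was 1.15 ± 0.458 in CTRL and 1.55 ± 0.927 in RbpjDEC (SD, n = 3 each), and the difference of 0.40 gave p = 0.7 in a two-sided exact permutation test. The Mirg to Meg3 ratio differed by 0.58 (p = 0.3, same exact permutation test) and the Mirg to Rian ratio by 0.18 (p = 0.4, same exact permutation test). Over the summed share and the 4 ratios, 5 values in all, the adjusted p-values were 0.667 for the share, 1 for Neat1 to Malat1, 0.875 for Rian to Meg3, 0.667 for Mirg to Meg3 and 0.667 for Mirg to Rian (exact permutation tests, Benjamini-Hochberg).

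Miat (ENSMUSG00000097767.8), on the minus strand at chr5:112213228-112229395, had 24, 79 and 21 counts in CTRL 1 to 3 and 60, 79 and 60 counts in RbpjDEC 1 to 3. CTRL 1 and 3 were below all RbpjDEC libraries, whereas CTRL 2 was above RbpjDEC 1 and 3 on the CPM scale, so the groups overlapped. The levels were 0.922 ± 0.649 CPM in CTRL and 1.57 ± 0.280 CPM in RbpjDEC (SD, n = 3 each), with a log2 fold change of 0.76 (95% interval -0.21 to 1.72, adjusted p = 0.402). Without CTRL 2 it was 1.51 with an adjusted p of 0.0560, which did not pass the threshold.

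H19, at chr7:142575529-142578143 on the minus strand, had 9, 0 and 2 counts in CTRL 1 to 3 and 0, 6 and 0 counts in RbpjDEC 1 to 3. By a floor of 3 counts, the 3 libraries at 0 (CTRL 2, RbpjDEC 1 and RbpjDEC 3) allow a level of up to 0.0634, 0.0669 and 0.0749 CPM, respectively. The libraries with counts were spread over both groups, H19 did not pass the filter on low counts, and no difference was detectable at this depth.

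In all, 7 of the 8 RNAs passed the low-count filter, and 0 of these 7 were called by edgeR in either direction, beside 1.13% of all 18438 genes tested (106 higher and 103 lower in RbpjDEC). At an unadjusted p under 0.05, 1 of 7 was reached (Malat1), and DESeq2 called 0 of 8, beside 1.52% of 38324 genes. The groups overlapped for all 8 RNAs, while they did not overlap for 23% of all genes tested. The median of the 7 log2 fold changes was 0.18 and that of all tested genes was 0.01.

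**Figure D3:**
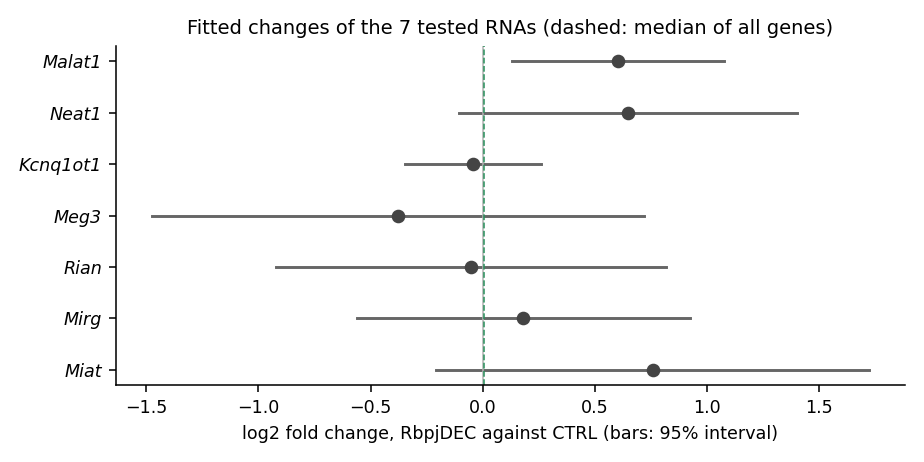
Log2 fold change of RbpjDEC against CTRL for the 7 tested RNAs (points) with 95% intervals (bars), and the median of all genes as a dashed line. The interval of Malat1 (0.13 to 1.08) lies above 0, those of the other 6 cross it, and the intervals of Meg3 and Miat are the widest.

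Because several members overlap other genes, the strand of the counted reads was examined. Of 23 rows that lie wholly within exons of a member on the same strand, 0 had a count. Of 7 such rows on the opposite strand, 6 had counts, with 1946 in all, of which 1845 were on Gm37376, a row opposite to the Malat1 exon. Without strand, reads of both kinds of row would fall on 2 genes at once, so these counts show that the strand was used in counting. Gm37376 amounted to 0.0258% of the Malat1 counts, with a log2 fold change of 0.71 (adjusted p = 0.292). The Kcnq1 row amounted to 3.56% of the Kcnq1ot1 counts, with a log2 fold change of 0.11 (adjusted p = 0.825). Gm26953, which runs opposite to Miat, had 40 counts against 323 on Miat and was not tested. Reads over the 23 rows on the same strand were given to no row of their own, and how many reads of the members this left out was not tested.

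The proteins that build the nuclear bodies of Malat1 and Neat1 were described by lists. Of 26 paraspeckle proteins, all tested, 2 were called higher and 0 lower, and their median change was 0.14 (log2). Hnrnpa1, a splicing regulator, rose from 122 ± 13.8 CPM in CTRL to 164 ± 9.10 CPM in RbpjDEC (SD, n = 3 each; log2 fold change 0.43, adjusted p = 0.0419) with no overlap between the groups, and Rbm4b (0.44, adjusted p = 0.0695) did not pass. The count was 0 without CTRL 1, CTRL 3 or RbpjDEC 1, 1 without RbpjDEC 2 and 5 without CTRL 2.

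Of 18 nuclear speckle proteins, all tested, 1 was called higher and 0 lower, and their median change was 0.22 (log2). Srsf2, a splicing factor that marks speckles, rose from 173 ± 22.4 to 256 ± 14.9 CPM (SD, n = 3 each; 0.56, adjusted p = 0.0197). Srsf3 (0.43, adjusted p = 0.0529) and Srsf5 (0.47, adjusted p = 0.0602) did not pass, although their groups did not overlap. At an unadjusted p under 0.05, 11 of the 18 were higher and 0 lower, beside 8.88% of all genes tested that were higher at this p. The count was 0 without any of CTRL 1, CTRL 3, RbpjDEC 1 or RbpjDEC 2, 2 without RbpjDEC 3 and 7 without CTRL 2, and DESeq2 called 6.

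Genes around the members were compared next. Of 13 tested neighbors of Malat1 and Neat1, 1 was called, with a median of 0.09: Pola2, a subunit of DNA polymerase alpha, rose from 110 ± 6.36 to 154 ± 3.98 CPM (SD, n = 3 each; 0.49, adjusted p = 0.0101). It was not called without CTRL 3 or RbpjDEC 1. Kcnk7 (1.00, adjusted p = 0.0820) and Znrd2 (0.85, adjusted p = 0.297) did not pass. Of 13 tested genes of the Kcnq1 domain, 1 was called, with a median of -0.06: Tssc4 rose from 18.5 ± 1.94 to 27.1 ± 1.97 CPM (SD, n = 3 each; 0.55, adjusted p = 0.0347). The count for this domain was 0 without CTRL 1, CTRL 3, RbpjDEC 1 or RbpjDEC 2 and 3 without CTRL 2. Tnfrsf22 (-0.30, adjusted p = 0.0820) and Trpm5 (1.50, adjusted p = 0.121) did not pass. Cdkn1c, a cell cycle inhibitor silenced in cis by Kcnq1ot1, was at 30.3 ± 1.83 CPM in CTRL and 32.3 ± 6.23 CPM in RbpjDEC (0.09, adjusted p = 0.751).

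In the H19-Igf2 domain 3 of 7 genes were tested and 0 were called, with a median of -0.48, which was the value of Igf2, a growth factor (adjusted p = 0.582). Lsp1 (-1.40, adjusted p = 0.134) and Mrpl23 (-0.06, adjusted p = 0.90) were the others. In the Dlk1-Meg3 domain 6 of 62 genes were tested and 0 were called, with a median of -0.17, and 35 were at 0 in every library. Wars, a tRNA synthetase next to the domain, came nearest (-0.24, adjusted p = 0.114), before Dync1h1 (-0.15, adjusted p = 0.338) and Wdr25 (-0.24, adjusted p = 0.541). Dlk1, a paternally expressed gene of this domain, was at 2.27 ± 0.965 CPM in CTRL and 1.99 ± 1.12 CPM in RbpjDEC (-0.19, adjusted p = 0.882). Of 52 microRNA rows of the domain, 17 had a count, with 142 counts in all, and 0 were tested. Of 5 tested neighbors of Miat 0 were called, with a median of -0.01, and Hps4, Tpst2 and Cryba4 had log2 fold changes of 0.11, -0.07 and 0.22.

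**Figure D4:**
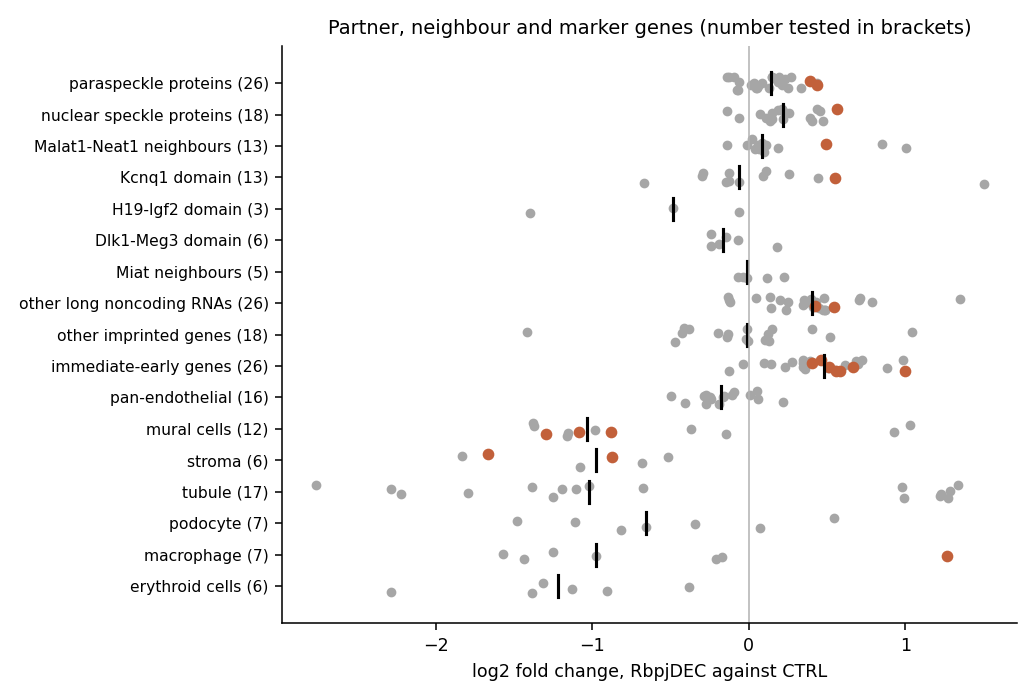
Log2 fold change of each tested gene (points) by list, with the list median as a black bar, genes called by edgeR in orange and the number tested in brackets. The medians of the other long noncoding RNAs (0.40) and immediate-early genes (0.48) lie to the right, and those of mural, stroma and tubule markers (-1.03, -0.98 and -1.02) to the left, with 7 of the 17 tubule markers above 0.

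Other long noncoding RNAs were read from a list of 33, of which 26 were tested. Of these, 2 were called higher and 0 lower, and their median change was 0.40 (log2), and 23 of the 26 were positive. Snhg12, a small nucleolar RNA host, was at 16.7 ± 2.22 CPM in CTRL and 24.4 ± 0.133 CPM in RbpjDEC (SD, n = 3 each; 0.54, adjusted p = 0.0402). Mir99ahg, a microRNA host, was at 30.1 ± 0.971 and 40.3 ± 2.81 CPM (0.42, adjusted p = 0.0402). Both rose without overlap between the groups, and Gas5, also a small nucleolar RNA host, did not pass (0.48, adjusted p = 0.0600). At an unadjusted p under 0.05, 10 of the 26 were higher and 0 lower, beside the same 8.88% of all genes tested and 75 of the 553 lincRNAs tested. The count was 0 without CTRL 1, CTRL 3, RbpjDEC 1 or RbpjDEC 2, 3 without RbpjDEC 3 and 7 without CTRL 2, and DESeq2 called 6.

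The genes most like Malat1 in profile were of little known kinds. Among 10441 other genes with a mean of at least 5 CPM, the nearest over the 6 libraries were Gm47260, Gm37238 and 4933407K13Rik, with root mean square differences of 0.109, 0.116 and 0.116 on the log2 scale. Gm47260 and Gm37238 belong to TEC, the class of GENCODE for transcripts that still need experimental checking, and 4933407K13Rik is a processed transcript. Gm37238 was at 16.1 CPM in CTRL and 25.1 CPM in RbpjDEC, with a log2 fold change of 0.64 and an edgeR adjusted p of 0.0468. Gm47260 (0.58, adjusted p = 0.186) and 4933407K13Rik (0.51, adjusted p = 0.149) were not called. These 3 genes were picked for a profile like that of Malat1, so a change like its own follows from the choice. For Neat1 the nearest was Malat1 itself (0.131), before Gm45902 (0.134) and the TEC row Gm37296 (0.162). For Meg3 the nearest were the TEC rows Gm43274, Gm48600 and Gm48602, at larger differences of 0.297 to 0.333.

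Annotation classes were then described, a choice made after the values were seen, with no test. Of 1180 tested TEC rows, 79.7% had a positive log2 fold change, with a median of 0.27, and 17 were called higher and 1 lower. Of 553 lincRNAs 72.2% were positive, with a median of 0.26, and of 758 antisense RNAs 72.7%, with a median of 0.24. Of 13510 protein-coding genes 45.2% were positive, with a median of -0.02, and of 1122 processed pseudogenes 44.9%, with a median of -0.05. With library size alone as the scale, the medians were 0.32 for TEC and 0.02 for protein-coding genes, so the sign of the protein-coding median turned. All TEC rows together took 0.406%, 0.429% and 0.354% of the counts in CTRL 1 to 3 and 0.518%, 0.427% and 0.547% in RbpjDEC 1 to 3. As for Malat1, CTRL 2 was the highest CTRL library and RbpjDEC 2 the lowest RbpjDEC library. The part of this shift in the Malat1 and Neat1 values was not tested.

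**Figure D5:**
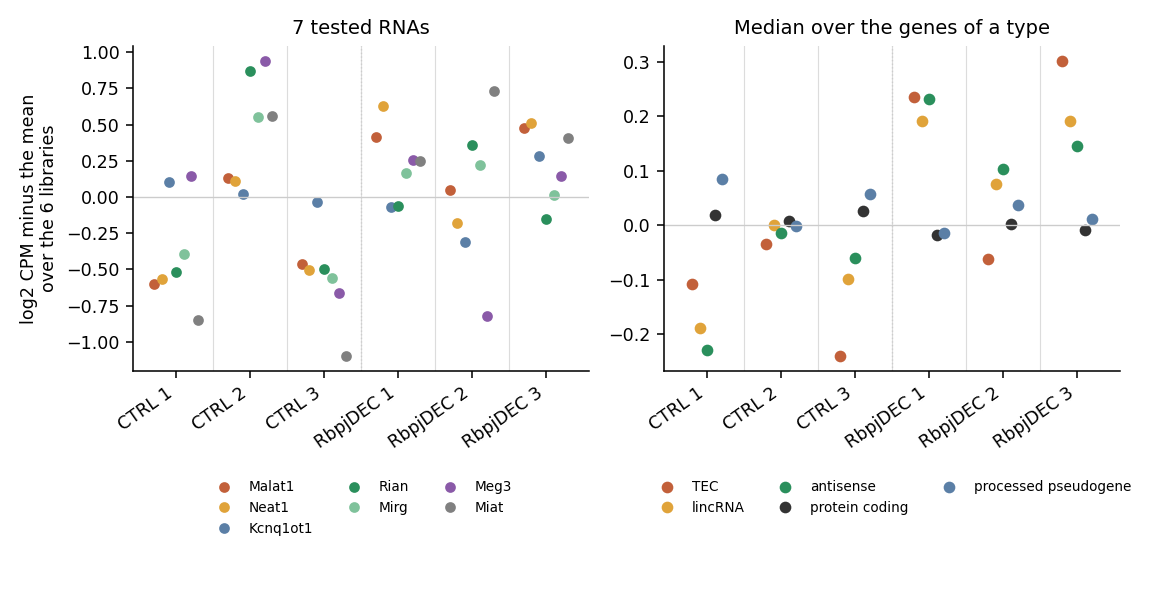
Left, log2 CPM minus the mean over the 6 libraries for the 7 tested RNAs, and right, the median of the same quantity over the genes of 5 annotation classes, with a column of points per library. Malat1 (-0.60, 0.13 and -0.46 in CTRL, 0.42, 0.05 and 0.48 in RbpjDEC) and Neat1 stay close together, and the TEC median is lowest in CTRL 3 (-0.24) and highest in RbpjDEC 3 (0.30).

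Other measures were set beside these values. Counts on mitochondrially encoded genes made up 6.48% to 7.17% of CTRL and 5.40% to 6.64% of RbpjDEC libraries, mostly from the mitochondrial rRNAs, and the groups overlapped. Of 26 tested immediate-early genes, which respond within minutes to stimuli such as cell isolation, 7 were called higher and 0 lower, with a median of 0.48. These were Egr1, Btg2, Egr3, Atf3, Fos, Junb and Ier2, and the summed level of the list was 8851 to 10582 CPM in CTRL and 11764 to 13808 CPM in RbpjDEC. The count was 0 without CTRL 3, 1 without CTRL 1, RbpjDEC 1 or RbpjDEC 2, 12 without CTRL 2 and 13 without RbpjDEC 3. It was 16 with DESeq2, 14 with the replicate number as a block and 18 without the low-count filter.

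Markers of other cells were examined as lists, with calls by edgeR unless DESeq2 is named. Of 12 tested mural cell markers 3 were called lower (Acta2, Myh11 and Rgs5), with summed levels of 270 to 323 CPM in CTRL and 233 to 260 CPM in RbpjDEC. In the same list Kcnj8 (0.93, adjusted p = 0.162) and Abcc9 (1.03, adjusted p = 0.307) were positive with no overlap between the groups, and DESeq2 called 7 lower and 1 higher (Kcnj8). The mural count was 0 without CTRL 1 or RbpjDEC 1, 1 without CTRL 3 and 9 without RbpjDEC 3. Of 6 tested stroma markers 2 were called lower (Pi16 and Pdgfra), with 199 to 215 and 108 to 131 CPM, before Col1a2 (-1.83, adjusted p = 0.0622). The stroma count was 0 without CTRL 3 or RbpjDEC 1 and 1 without CTRL 1 or RbpjDEC 2.

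The 17 tubule markers were split, with 7 positive and 10 negative, 0 called and summed levels of 562 to 683 CPM in CTRL and 313 to 666 CPM in RbpjDEC. Those of lowest p were Atp6v1g3 (-2.23), Slc4a1 (-2.29) and Epcam (-1.02), with adjusted p-values of 0.0992, 0.118 and 0.154, and DESeq2 called 2 lower. Without RbpjDEC 3, edgeR called 5 tubule and 2 podocyte markers. The 7 positive markers were proximal tubule genes, all highest in RbpjDEC 3, such as Lrp2 at 129 CPM in RbpjDEC 3 and 13.7 to 40.4 CPM in the other libraries. Of 7 podocyte markers 0 were called, and DESeq2 called 1 lower (Podxl) and 1 higher. Podxl, which ECs also express, held most of their summed levels of 3231 to 3604 CPM in CTRL and 2652 to 2934 CPM in RbpjDEC. The log2 fold change of Podxl was -0.35 (adjusted p = 0.0678).

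Of 7 tested macrophage markers 1 was called higher, Cd68, at 9.97 ± 2.71 CPM in CTRL and 24.0 ± 1.70 CPM in RbpjDEC (SD, n = 3 each). The other 6 were negative, with a list median of -0.97, among them Csf1r (-1.57, adjusted p = 0.134) and Ptprc (-1.44, adjusted p = 0.188). The macrophage count was 0 without CTRL 3, RbpjDEC 1 or RbpjDEC 2 and 2 without RbpjDEC 3. Of 6 tested erythroid markers 0 were called by edgeR and 1 was called lower by DESeq2 (Slc4a1, which is also a tubule marker), before Hba-a2 (-1.38) and Hbb-bs (-1.13), and without RbpjDEC 3 edgeR called 2. The tested B cell markers Ighm (-1.47) and Cd79a (0.12) and the T cell marker Lck (0.73) were called by neither tool, while DESeq2 called 1 B cell marker that had not passed the low-count filter of edgeR. Summed over a list, erythroid markers were at 9.91 to 11.8 CPM in CTRL and 1.24 to 7.21 CPM in RbpjDEC, without overlap. B cell markers were at 1.69 to 3.64 CPM in CTRL and 0.335 to 1.02 CPM in RbpjDEC, also without overlap. T cell markers were at 3.39 to 5.53 CPM in CTRL and 4.91 to 8.73 CPM in RbpjDEC, with overlap. Of the 10 T cell markers, 4 were at 0 in every library, Cd3d and Cd3e among them.

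Of the 16 pan-endothelial markers edgeR called 0, with a median of -0.18, and 1 was higher and 6 were lower at an unadjusted p under 0.05. Over all 18438 genes tested, 1638 were higher and 1589 lower at this p. Those of lowest p were Ehd3 (-0.50, adjusted p = 0.0611), Eng (-0.41, adjusted p = 0.0660) and Kdr (-0.27, adjusted p = 0.106), and DESeq2 called these 3 lower together with Emcn and Flt1. With a single library left out, edgeR called 0 to 2, with 1 without CTRL 1 or CTRL 2 and 2 without RbpjDEC 3. The part of all these measures in the values of the nuclear RNAs was not tested.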

How the data were processed

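Sorted CD31+CD45- kidney ECs of 3 CTRL and 3 RbpjDEC male mice were profiled, with 1 library per mouse, by total RNA sequencing with a stranded low-input kit, all in a common sequencing run. The authors trimmed reads with Trim Galore 0.6.4, aligned them with STAR 2.6.1d to GRCm38.p6 and counted them per gene with featureCounts of Subread 1.6.4. The deposited values are raw read counts per gene, with 39649171 to 47726850 counts per library, and the counting strand setting is not given in the sources used here.

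Groups came from the labels. Counts were filtered with filterByExpr, which left 18438 of 55401 genes, scaled by TMM and tested with edgeR 4.0.16 (quasi-likelihood test, robust, design of group alone) in R 4.3.3. P-values were adjusted by Benjamini-Hochberg over all genes tested, with a threshold of 0.05. CPM are TMM-scaled, and per-kilobase values use the merged exons of GENCODE M21, which holds 55141 of the listed genes and is not the release the authors counted with. Profiles are log2 CPM with a prior count of 2. The summed share and ratios were tested by two-sided exact permutation over libraries. The scripts were tested on simulated data. Alternatives were other scalings and filters, DESeq2 1.42.0, a replicate block and leaving out each library.

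The members and gene lists were chosen with earlier results of these data known. Genes were named by a rule: the 8 members, every list gene past the threshold and the 3 of lowest p in a list, genes overlapping a member, and the 3 nearest profiles to Malat1, Neat1 and Meg3 among genes of at least 5 CPM. Rbpj, Cdkn1c, Dlk1, Kcnj8, Abcc9, Lrp2, Emcn, Flt1, Cd3d and Cd3e were named in addition, after their values were seen. Some genes that this rule names are not reported here.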

Additional observations from a re-analysis of the deposited data

How the results depend on the processing

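Malat1 and Neat1 were higher in RbpjDEC under every alternative run, and Malat1 was called in 1 of them. With each library left out in turn, the log2 fold change was 0.46 to 0.85 for Malat1, 0.49 to 0.89 for Neat1, -0.22 to 0.086 for Kcnq1ot1, -0.71 to 0.14 for Meg3, -0.29 to 0.58 for Rian, -0.027 to 0.62 for Mirg and 0.46 to 1.51 for Miat. The number of the 8 RNAs called was 0 to 1, with 1 (Malat1) without CTRL 2. The summed share differed by 1.03 to 1.63 percentage points, the log2 Neat1 to Malat1 ratio by -0.090 to 0.13 and the log2 Rian to Meg3 ratio by -0.13 to 0.67. The number of called paraspeckle proteins was 0 to 5, that of nuclear speckle proteins 0 to 7 and that of other long noncoding RNAs 0 to 7. The whole table gave 21 calls without RbpjDEC 1, 735 without CTRL 2 and 531 without RbpjDEC 3, against 209 with all libraries.

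Kcnq1ot1 turned to 0.0078 when libraries were scaled without mitochondrial genes and members. Without a low-count filter the calls were 6 for paraspeckle proteins, 6 for nuclear speckle proteins, 8 for other long noncoding RNAs and 1436 in all. Nuclear speckle calls were 3 with library size alone, 2 without mitochondrial genes and members in the scale, 2 with at least 1 CPM and 6 with DESeq2, which also called 6 other long noncoding RNAs and 584 genes in all. The causes were not tested.

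With the replicate number as a block, Rian turned to 0.080, Malat1 was at 0.63 (adjusted p = 0.343) and Neat1 at 0.65 (adjusted p = 0.589), and the calls were 4 nuclear speckle proteins, 4 other long noncoding RNAs and 344 genes in all. Deviations of same-numbered libraries correlated at 0.0231, 0.00916 and 0.00544 across genes, and those of differently numbered libraries at -0.0628 to 0.0480. The labels give no source of pairing, and what same-numbered libraries share besides a number was not tested. H19 had too few counts for a difference to be detectable, while Meg3, Rian, Mirg and Miat differed between CTRL libraries by more than counting error.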

Other observations

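Of 25 other imprinted genes 18 were tested and 0 were called by edgeR, with a median log2 fold change of -0.01. The count was 2 without CTRL 2, 1 without RbpjDEC 3 and 4 without the low-count filter. Sgce, a paternally expressed gene that encodes a sarcoglycan, came nearest at 37.3 ± 2.26 CPM in CTRL and 28.1 ± 2.26 CPM in RbpjDEC (SD, n = 3 each; -0.41, edgeR adjusted p = 0.0550), and DESeq2 gave it an adjusted p of 0.0165. Mcts2 (0.52, adjusted p = 0.130) and Mest (0.40, adjusted p = 0.162) followed.

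H19 was also fitted without the low-count filter, where its log2 fold change was -0.86 with an adjusted p of 0.815 in edgeR, on 17 counts in all. The small RNA rows of the table add little on the Dlk1-Meg3 domain, since the microRNA row with the most counts had 23 over all 6 libraries.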
